A study of Mus musculus with 80 samples.

Results

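The genes described here are 10 regulators of the G1 phase of the cell cycle in E14, an established wild-type mouse embryonic stem cell (ESC) line. They are the D-type cyclins Ccnd1, Ccnd2 and Ccnd3, the E-type cyclins Ccne1 and Ccne2, the inhibitors Cdkn1a, Cdkn1b and Cdkn2a, and the pocket proteins Rb1 and Rbl2. They were found by gene symbol among the 25965 rows of the RNA-seq table, each of the 10 symbols in 1 row. All RNA samples came from E14 cells, with no allele altered, first grown in serum medium with LIF and then moved to 2i, which is serum-free N2B27 medium with LIF, the MEK inhibitor PD0325901 and the GSK3 inhibitor CHIR99021. RNA-seq covered serum and 6, 24 and 72 h of 2i with 3 samples each, described by the study as biological replicates. H3K9me2 ChIP-seq covered serum, 24 h of 2i and LT2i, the study's name for cells kept in 2i long term, with 2 bound samples and 1 input each. LIF was in both media. The loss of serum, the change of base medium from DMEM to N2B27 and the gain of both inhibitors came together, so these cannot be told apart. No serum sample is labelled with a later time, so time in culture cannot be told apart from time in 2i either. In bulk samples such as these, a change in the share of cells in a state and a change in RNA per cell also cannot be told apart.

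D-type cyclins are made in response to growth signals and activate the kinases CDK4 and CDK6. These begin to phosphorylate the pocket proteins, which otherwise hold E2F transcription factors inactive, and cyclin E with CDK2 completes that step and opens S phase. CIP/KIP proteins, encoded by Cdkn1a (p21) and Cdkn1b (p27), bind cyclin-CDK complexes and hold CDK2 inactive, INK4 proteins bind CDK4 and CDK6 alone, and mouse ESCs grown in serum are known for a short G1 phase with high cyclin E and little active inhibitor.

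Values are the deposited log2 levels, which account for gene length and depth and were brought to a 75th percentile of 2.51 in every library. A difference was called where the Benjamini-Hochberg adjusted p of limma, fitted over 11376 genes with a mean log2 level of 0 or more across the 12 libraries, lay under 0.05. Read totals of the RNA libraries were not used here, and none of the 10 genes lay at the value given to genes without reads in any library. Replicates correlated at r of 0.943 to 0.995 across genes. The 24 h replicates 1 and 2 and 72 h replicate 2 stood apart in the balance of short and long genes. For this, each gene's log2 level was first taken relative to its own mean over the 12 libraries. The median of these values for genes spanning up to 6207 bp was set against that for genes spanning 57869 bp or more. The former minus the latter was 0.99 and 0.84 in 24 h replicates 1 and 2 and 0.46 in 72 h replicate 2. It was -0.45 to 0.06 in the other libraries. The part of this imbalance in the results was not tested, but values without these 3 libraries, which leave 1 library at 24 h that is assumed to vary like the others, are given beside each printed change whose call they altered or, if called, whose size they moved by over 1.5 times. Pluripotency genes (Pou5f1, Sox2, Nanog, Zfp42, Esrrb and Klf4) summed to linear levels of 839 to 913 in serum, 819 to 902 at 6 h, 866 to 1299 at 24 h and 1018 to 1355 at 72 h. Serum and 72 h did not overlap. Their mean linear levels in serum and at 72 h were 110 and 362 for Nanog, 55.9 and 108 for Esrrb, and 38.9 and 99.1 for Klf4. They were 156 and 177 for Sox2, 315 and 311 for Pou5f1, and 209 and 131 for Zfp42. The sum of 6 primitive endoderm genes was 4.09 to 4.46 in serum, 3.78 to 4.20 at 6 h, 3.45 to 3.65 at 24 h and 3.56 to 4.16 at 72 h. The sum of 5 mesoderm genes was 4.42 to 5.34 in serum, 2.67 to 3.46 at 6 h, 1.71 to 1.89 at 24 h and 3.34 to 3.76 at 72 h. That of 6 fibroblast genes was 7.62 to 9.74 in serum, 8.09 to 8.89 at 6 h, 4.71 to 7.72 at 24 h and 4.51 to 4.93 at 72 h. Among these, mean log2 levels were -5.45 for Lum and -4.86 for Dcn. Members of a sum also went both ways. Mean linear levels in serum and at 72 h were 0.62 and 1.17 for Gata4 and 1.87 and 0.90 for Dab2 among the endoderm genes. Among the mesoderm genes they were 1.51 and 2.04 for Eomes and 1.67 and 0.54 for Hand1. Col1a1 made up most of the fibroblast sum, with 5.66 and 2.90. The part of these sums in the results was not tested.

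Of the 10 genes, 9 passed the level filter. Rbl2 did not pass and was not tested. At 6 h, 5 of the 9 were called, 2 higher and 3 lower, against 14.2% of all tested genes (8.24% higher and 6.01% lower). At 24 h, 8 were called, 3 higher and 5 lower, against 62.7% of all genes (33.6% higher and 29.1% lower). At 72 h, 6 were called, 3 higher and 3 lower, against 50.5% of all genes (24.5% higher and 26% lower). Between 24 and 72 h, 3 of the 9 were called, 2 higher and 1 lower, against 29.8% of all genes (15.2% higher and 14.6% lower). The libraries of both times did not overlap for 5 of the 9 at 6 h, 8 at 24 h, 7 at 72 h and 3 between 24 and 72 h, where this held for 43.8%, 64.2%, 62.5% and 31.8% of all tested genes. The 10 genes were chosen with earlier results of these data known. Their counts and sizes beside those of all genes therefore cannot show that they changed more than other genes. All 6 genes called at 72 h had changed by 1 log2 unit or more, with 3 higher and 3 lower, where 9.72% of all tested genes were called that much higher and 8.19% that much lower. The genes called higher at 72 h were the inhibitors Cdkn1a, Cdkn1b and Cdkn2a, and those called lower were Ccnd1, Ccnd2 and Ccne1.

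**Figure D1:**
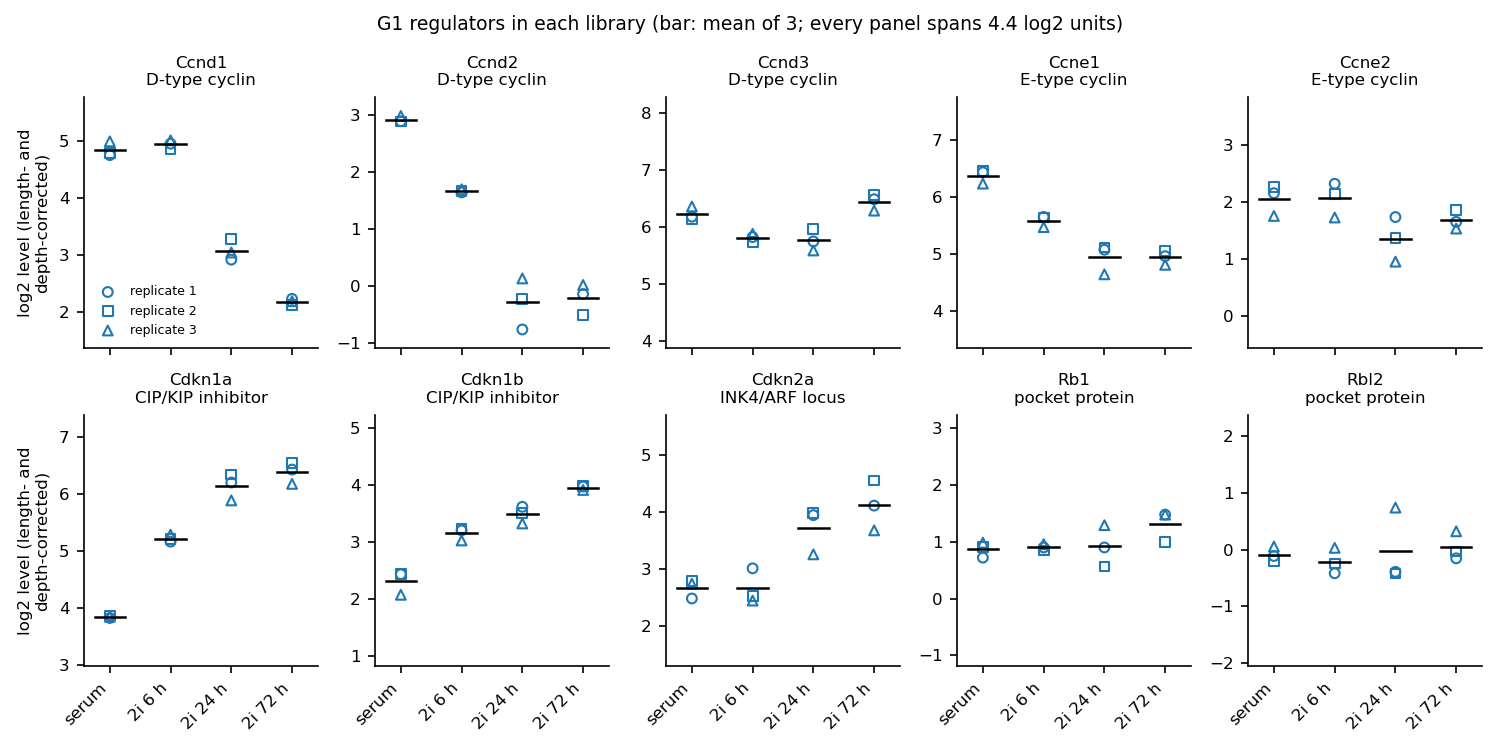
Log2 level of the 10 genes in each RNA-seq library (y axis) in serum and after 6, 24 and 72 h of 2i (x axis), with 1 symbol per replicate and a bar at the mean of 3. Every panel spans the same number of log2 units. Ccnd1, Ccnd2 and Ccne1 end below serum and the 3 inhibitors above it, while the group means of Ccnd3, Ccne2, Rb1 and Rbl2 stay within 1 log2 unit of serum.

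The 3 D-type cyclins followed 3 different courses. Ccnd2 had fallen by 6 h, Ccnd1 fell only after 6 h, and Ccnd3, the most abundant of them, was not called against serum at 72 h. Ccnd1 (chr7:144929931-144939869, minus strand, GRCm38) is the D-type cyclin best known as a target of mitogen signalling through ERK. Its log2 level was 4.75, 4.80 and 5.00 in serum, 4.95, 4.86 and 5.01 at 6 h, 2.92, 3.27 and 3.04 at 24 h, and 2.23, 2.12 and 2.19 at 72 h. The 6 h libraries overlapped serum, and every library of 24 h lay below both and above every library of 72 h. The change was 0.09 at 6 h (SE 0.11, adjusted p = 0.726), -1.77 at 24 h (adjusted p = 4.03e-07) and -2.67 at 72 h (SE 0.11, adjusted p = 1.26e-08), a level 6.36-fold below serum. Ccnd1 was also lower at 72 h than at 24 h, by -0.90 (adjusted p = 0.00021).

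Ccnd2 (chr6:127125779-127151048, minus strand), which drives the same kinases, read 2.89, 2.89 and 2.99 in serum and 1.64, 1.67 and 1.70 at 6 h. It then read -0.76, -0.23 and 0.13 at 24 h and -0.14, -0.51 and 0.02 at 72 h. All serum libraries lay above all 6 h libraries and these above all later ones, while 24 and 72 h overlapped. The change was -1.25 at 6 h (SE 0.21, adjusted p = 0.0017), -3.21 at 24 h (adjusted p = 4.38e-07) and -3.13 at 72 h (adjusted p = 3.43e-07), 8.78-fold below serum. From 24 to 72 h the change was 0.07 (adjusted p = 0.792). Its fall had thus passed the test at a time when the Ccnd1 libraries still overlapped serum. The difference between both genes' changes was not tested.

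Ccnd3 (chr17:47505051-47599683, plus strand) read 6.18, 6.14 and 6.36 in serum, 5.82, 5.74 and 5.88 at 6 h, 5.75, 5.97 and 5.59 at 24 h, and 6.49, 6.56 and 6.29 at 72 h. The 6 and 24 h libraries lay below serum and the 72 h libraries overlapped it. The change was -0.41 at 6 h (adjusted p = 0.0493), -0.46 at 24 h (adjusted p = 0.00822) and 0.22 at 72 h (SE 0.13, adjusted p = 0.168), and the rise from 24 to 72 h was 0.68 (adjusted p = 0.0024). The 6 h call was lost when any 1 library of serum or 6 h was left out (adjusted p of 0.0893 to 0.174), with no filter or a stricter one, and with the gene span trend removed (0.0528 to 0.0657). The 24 h call was lost when the trend of each library against gene span was removed (change -0.13, adjusted p = 0.499) but was -0.64 without the 3 libraries that stood apart (adjusted p = 0.00306). The rise from 24 to 72 h was 0.45 with that trend removed (adjusted p = 0.056). Ccnd3 spans 94633 bp and so is among the long genes.

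The deposited levels are corrected for gene length, so the D-type cyclins can be compared with each other within a library. On the linear scale Ccnd3 made up 67.8%, 66.6% and 67.3% of the summed D-type cyclin level in the serum libraries, and 62.4%, 62.3% and 62.4% at 6 h. It made up 86.8%, 85.6% and 83.7% at 24 h and 94.1%, 94.9% and 93.3% at 72 h. No library of one time overlapped one of another. Neither these shares nor the summed level was recomputed with the gene span trend removed. The share of Ccnd1 was 25.9% ± 0.59 (SD, n = 3) in serum and then 34.1% ± 0.14, 13.3% ± 1.07 and 4.92% ± 0.54 after 6, 24 and 72 h. That of Ccnd2 went from 6.82% ± 0.28 to 3.54% ± 0.17, 1.34% ± 0.50 and 0.957% ± 0.25 (SD, n = 3). The share of Ccnd3 was 26.9 percentage points above serum at 72 h, with an exact two-sided permutation p = 0.1, the smallest that 3 against 3 samples allow. The summed D-type level was 111 ± 9.04 (SD, n = 3) in serum and 90.2 ± 4.46, 64.1 ± 8.14 and 92.8 ± 8.22 after 6, 24 and 72 h, so the sum at 72 h stood at 0.832 of the serum mean although Ccnd1 and Ccnd2 were both several times lower.

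**Figure D2:**
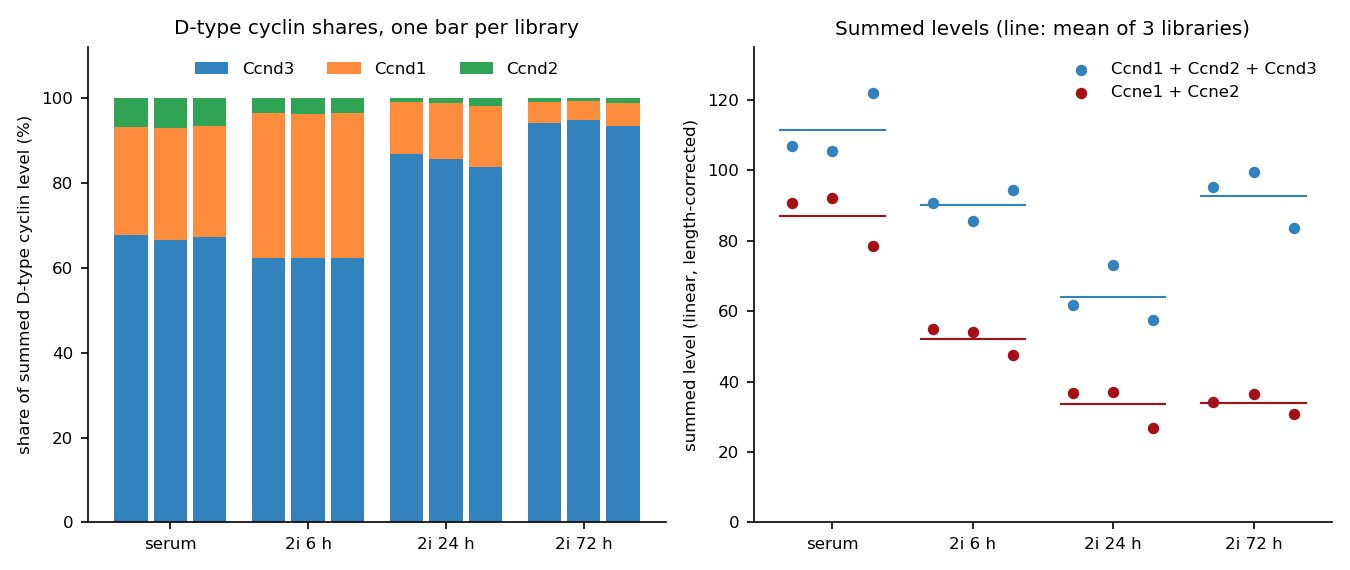
Left, the percent of the summed linear level of D-type cyclins that each gene held, with 1 stacked bar per library. Right, the summed linear level of D-type cyclins and of E-type cyclins in each library, with a line at the mean of 3. Ccnd3 holds 66.6% to 67.8% in the serum libraries and 93.3% to 94.9% at 72 h, and the E-type sum falls from 87.0 in serum to 33.9 at 72 h.

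Of the E-type cyclins, which activate CDK2 at the entry to S phase, Ccne1 carried nearly all of the level and fell early and lastingly. Ccne1 (chr7:38097984-38107534, minus strand) read 6.43, 6.45 and 6.23 in serum, 5.64, 5.63 and 5.46 at 6 h, 5.07, 5.11 and 4.64 at 24 h, and 4.96, 5.04 and 4.80 at 72 h. Serum, 6 h and the later times did not overlap, and 24 and 72 h did. The change was -0.79 at 6 h (adjusted p = 0.00253), -1.43 at 24 h (adjusted p = 8.61e-06) and -1.43 at 72 h (SE 0.14, adjusted p = 7.44e-06), 2.70-fold below serum, with -0.0035 between 24 and 72 h (adjusted p = 0.985). Ccne2 (chr4:11191351-11204779, plus strand) read 2.15, 2.27 and 1.75 in serum, 2.32, 2.14 and 1.72 at 6 h, 1.73, 1.36 and 0.95 at 24 h, and 1.65, 1.86 and 1.53 at 72 h. Only its 24 h libraries lay below all serum libraries, by a narrow margin. The change passed the test at 24 h (-0.71, adjusted p = 0.0151) and not at 72 h (-0.38, adjusted p = 0.173). The 24 h call was lost without serum replicate 2 (adjusted p = 0.0594), and the 72 h change was called when replicate number was added to the fit. Without the 3 libraries that stood apart the change at 24 h was -1.11 (adjusted p = 0.00477). Ccne2 shares bases with Ints8 on the opposite strand, as do Ccnd1 with Oraov1, Ccnd3 with Bysl and Rbl2 with Aktip, and the sources used here do not say whether reads were counted by strand. Summed, the E-type level fell from 87.0 ± 7.55 in serum to 52.2 ± 4.09, 33.6 ± 5.88 and 33.9 ± 2.91 at 6, 24 and 72 h (SD, n = 3, exact two-sided permutation p = 0.1 at each time, the smallest possible), and Ccne1 held 95.2%, 91.9%, 92.3% and 90.5% of it.

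RefSeq (GRCm38.p6) gave promoter windows for 6 of the 10 genes, 9 windows in all because Ccnd3, Cdkn1a and Cdkn2a have 2 starts each. None was at hand for Ccnd1, Ccnd2, Ccne2 and Rb1. The RefSeq starts are not always those of the gene spans given here, which come from the RNA-seq table. The windows of Ccne1 and of the first Cdkn2a start reach into those spans, and the windows of second starts lie within them. The 250 bases before each start were searched on both strands for the GC box GGGCGG bound by SP and KLF factors, the E2F words TTTGGCGC, TTTCGCGC, TTTGCCGC and TTTCCCGC, the FOXO word GTAAACA, the TCF/LEF word CTTTGA, and the 20-base p53 response element with at most 1 letter off. The GC box and the E2F words can share letters. The motifs were found in 32.7%, 1.86%, 3.17%, 13.8% and 0.0761% of the 32851 windows in the table. Shown first is the window of Ccne1, the E-type cyclin that fell. Its 4 GC boxes are in capitals.

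Ccne1, chr7:38107491-38107740, minus strand: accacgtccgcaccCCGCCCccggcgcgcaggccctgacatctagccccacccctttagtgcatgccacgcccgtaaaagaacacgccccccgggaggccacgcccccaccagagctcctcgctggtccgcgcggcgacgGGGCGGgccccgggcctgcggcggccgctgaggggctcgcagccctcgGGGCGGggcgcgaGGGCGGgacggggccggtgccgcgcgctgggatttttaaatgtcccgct

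The window is 76% G and C, against a median of 52.4% over all windows, and holds none of the other words.

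Cdkn1a and Cdkn1b, of the CIP/KIP inhibitors, were called higher at 6, 24 and 72 h. The third CIP/KIP gene, Cdkn1c (p57), is not among the 10 and was called lower at 24 h (-0.48, adjusted p = 0.0244, and -0.83 without the 3 libraries that stood apart) and 72 h (-1.91, adjusted p = 2.96e-06). Cdkn1a (chr17:29090979-29100722, plus strand) encodes p21, the CDK inhibitor best known as a target of p53. It read 3.83, 3.87 and 3.85 in serum, 5.17, 5.21 and 5.29 at 6 h, 6.21, 6.35 and 5.89 at 24 h, and 6.43, 6.55 and 6.18 at 72 h. All serum libraries lay below all 6 h libraries and these below all later ones. The change was 1.37 at 6 h (SE 0.13, adjusted p = 3.26e-05), 2.30 at 24 h (adjusted p = 1.98e-07) and 2.54 at 72 h (adjusted p = 5.33e-08), 5.81-fold above serum. From 24 to 72 h it was 0.24 higher (adjusted p = 0.176), which passed the test once the gene span trend was removed (0.42, adjusted p = 0.00564) or the 3 libraries that stood apart were left out (0.42, adjusted p = 0.045).

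Cdkn1b (chr6:134920401-134925513, plus strand) encodes p27, which restrains CDK2 in resting and differentiating cells. It read 2.44, 2.44 and 2.08 in serum, 3.21, 3.24 and 3.03 at 6 h, 3.62, 3.51 and 3.33 at 24 h, and 3.98, 3.98 and 3.92 at 72 h. The 4 times did not overlap, each standing above the one before. The change was 0.84 at 6 h (SE 0.12, adjusted p = 0.000734), 1.17 at 24 h (adjusted p = 1.57e-05) and 1.64 at 72 h (adjusted p = 1.06e-06), 3.12-fold above serum, and 0.47 from 24 to 72 h (adjusted p = 0.0146), a call that was lost without 72 h replicate 1 (adjusted p = 0.0525) and when only the 6 libraries compared were fitted (adjusted p = 0.0668). Cdkn1a thus stood above Cdkn1b in length-corrected level in every library, by a mean of 3.85 against 2.32 in serum and 6.39 against 3.96 at 72 h.

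The promoter windows of both are shown because both genes were called higher from 6 h on. In the first start of Cdkn1a the capitals mark the p53 response element, 51 to 32 bases before the start. In the other windows they mark GC boxes.

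Cdkn1a, first start, chr17:29090729-29090978, plus strand: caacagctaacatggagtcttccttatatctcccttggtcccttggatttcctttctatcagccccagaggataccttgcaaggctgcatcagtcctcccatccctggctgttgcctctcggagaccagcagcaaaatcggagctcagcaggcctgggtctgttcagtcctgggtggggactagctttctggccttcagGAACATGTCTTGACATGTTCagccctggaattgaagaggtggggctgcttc
Cdkn1a, second start, chr17:29093519-29093768, plus strand: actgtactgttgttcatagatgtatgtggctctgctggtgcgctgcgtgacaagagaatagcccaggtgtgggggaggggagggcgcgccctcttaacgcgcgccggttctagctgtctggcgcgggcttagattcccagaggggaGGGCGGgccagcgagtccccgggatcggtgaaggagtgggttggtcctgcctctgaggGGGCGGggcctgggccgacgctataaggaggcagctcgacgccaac
Cdkn1b, chr6:134920151-134920400, plus strand: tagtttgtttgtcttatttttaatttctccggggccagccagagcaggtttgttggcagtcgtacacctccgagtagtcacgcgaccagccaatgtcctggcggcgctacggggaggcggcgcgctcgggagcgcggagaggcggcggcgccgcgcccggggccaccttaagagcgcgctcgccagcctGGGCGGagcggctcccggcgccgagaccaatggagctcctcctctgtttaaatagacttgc

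The first window holds no GC box, the second holds 2 and that of Cdkn1b holds 1. No window of the 6 genes holds the TCF/LEF word. Of the windows not shown, that of the first Ccnd3 start holds the FOXO word, 243 to 237 bases before the start, and 2 GC boxes. The window of the second Ccnd3 start holds 1 GC box, and that of Rbl2 holds none of the motifs searched. The gene-level values do not tell from which Cdkn1a start the RNA came.

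Cdkn2a (chr4:89274473-89294653, minus strand) carries both the INK4 protein p16 and, from another first exon and reading frame, ARF, which acts on MDM2 and p53, and its value covers both. It read 2.48, 2.79 and 2.74 in serum, 3.01, 2.53 and 2.45 at 6 h, 3.95, 3.98 and 3.26 at 24 h, and 4.11, 4.55 and 3.68 at 72 h. Serum and 6 h overlapped, and all libraries of 24 and 72 h lay above both. The change was -0.01 at 6 h (adjusted p = 0.993), 1.06 at 24 h (SE 0.25, adjusted p = 0.00356) and 1.44 at 72 h (SE 0.25, adjusted p = 0.000582), 2.72-fold above serum. Replicate 3 was lowest at both later times. Without the 3 libraries that stood apart the change was 0.59 at 24 h (adjusted p = 0.0656) and 1.22 at 72 h (adjusted p = 0.000384). The window of its first start, where the ARF transcript opens, is shown for its E2F word, TTTCCCGC, and 2 GC boxes, all in capitals. Its second window holds none of the motifs searched.

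Cdkn2a, first start, chr4:89294620-89294869, minus strand: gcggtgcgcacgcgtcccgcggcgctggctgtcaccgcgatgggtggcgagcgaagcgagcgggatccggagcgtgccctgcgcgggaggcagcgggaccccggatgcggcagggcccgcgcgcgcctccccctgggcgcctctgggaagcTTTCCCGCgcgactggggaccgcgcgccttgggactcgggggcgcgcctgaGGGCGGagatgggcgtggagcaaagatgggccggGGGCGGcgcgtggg

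Rb1 and Rbl2 encode pocket proteins, which hold E2F factors inactive. Rb1 was not called at any time in the main fit, and Rbl2 failed the level filter and was not tested. With replicate number added to that fit, Rb1 was called at 72 h. The third pocket protein gene, Rbl1 (p107), is not among the 10 and was called higher by 0.68 at 6 h (adjusted p = 0.0037), 0.47 at 24 h (adjusted p = 0.00768) and 0.65 at 72 h (adjusted p = 0.0014). Rb1 (chr14:73183673-73325822, minus strand) read 0.72, 0.91 and 0.98 in serum, 0.90, 0.84 and 0.95 at 6 h, 0.90, 0.56 and 1.29 at 24 h, and 1.47, 0.99 and 1.47 at 72 h. All 72 h libraries lay above all serum libraries, though the lowest of the former (0.99) barely cleared the highest of the latter (0.98). The change was 0.03 at 6 h (adjusted p = 0.968), 0.05 at 24 h (adjusted p = 0.839) and 0.44 at 72 h (SE 0.19, adjusted p = 0.0733). Without the 3 libraries that stood apart it was 0.42 at 24 h (adjusted p = 0.0468) and 0.60 at 72 h (adjusted p = 0.00204), and with the gene span trend removed 0.45 (adjusted p = 0.0134) and 0.54 (adjusted p = 0.0058). Rb1 spans 142150 bp, the longest of the 10 genes, and its span holds the gene Lpar6 and part of Rcbtb2 on the other strand and part of Gm17233 on its own. Rbl2 (chr8:91070057-91123844, plus strand), which encodes p130, read -0.11, -0.21 and 0.05 in serum, -0.42, -0.24 and 0.03 at 6 h, -0.39, -0.42 and 0.74 at 24 h, and -0.15, -0.03 and 0.32 at 72 h. Its groups overlapped at every time, and fitted without the level filter the change was -0.12, 0.06 and 0.13 (adjusted p of 0.908, 0.992 and 0.719).

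**Figure D3:**
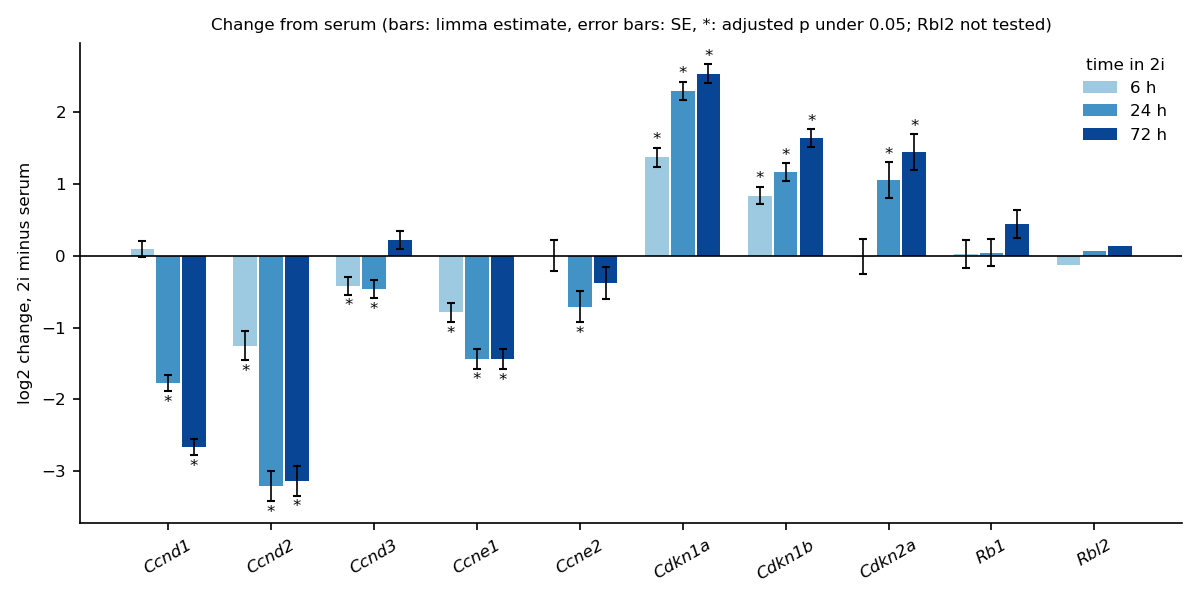
Log2 change from serum for each gene after 6, 24 and 72 h of 2i. Bars are limma estimates, error bars their standard errors, and stars adjusted p under 0.05. Rbl2 was not tested and carries no error bar. The 72 h bars reach -3.13 for Ccnd2 and 2.54 for Cdkn1a.

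In mean length-corrected level the order in serum was Ccne1 (6.37) and Ccnd3 (6.22), then Ccnd1 (4.85), Cdkn1a (3.85), Ccnd2 (2.92), Cdkn2a (2.67), Cdkn1b (2.32), Ccne2 (2.06), Rb1 (0.87) and Rbl2 (-0.09). The libraries of Ccne1 and Ccnd3 overlapped, as did those of Cdkn1b and Ccne2. At 72 h the order was Ccnd3 (6.44) and Cdkn1a (6.39), then Ccne1 (4.93), Cdkn2a (4.12), Cdkn1b (3.96), Ccnd1 (2.18), Ccne2 (1.68), Rb1 (1.31), Rbl2 (0.044) and Ccnd2 (-0.21). Ccnd3 overlapped with Cdkn1a, Cdkn2a with Cdkn1b, and Rbl2 with Ccnd2. Thus Cdkn1a stood 2.52 below Ccne1 in serum and 1.46 above it at 72 h on this scale, and no library of the one overlapped the other at either time.

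Other genes of the pathway were taken as 3 lists, also chosen with earlier results of these data known. Among 30 partners of G1 control (such as kinases, E2F factors, further inhibitors, and parts and regulators of ubiquitin ligases), 29 were tested. At 72 h, 7 were called higher and 13 lower (69% in all, against 50.5% of all tested genes), with a median change of -0.16 against -0.01 over all tested genes. At 24 h the counts were 8 and 14 (75.9%, against 62.7%), and at 6 h 3 and 4 (24.1%, against 14.2%). Without the 3 libraries that stood apart the counts were 7 and 14 at 72 h (72.4%, against 58.6%), 4 and 13 at 24 h (58.6%, against 49.3%) and 4 and 7 at 6 h (37.9%, against 26.1%). The 3 largest falls at 72 h among the genes called were E2f8 (-2.57, adjusted p = 3.28e-07), a repressor of the E2F family, Cdk6 (-2.37, adjusted p = 1.85e-06), a kinase partner of the D-type cyclins, and the activator E2f2 (-2.21, adjusted p = 5.09e-07). All 3 were already lower at 6 h (adjusted p of 0.00959, 0.00427 and 5.94e-05). The 3 largest rises among the genes called were the INK4 inhibitors Cdkn2b (0.96, adjusted p = 0.00761) and Cdkn2d (0.91, adjusted p = 0.00607) and the activator E2f1 (0.86, adjusted p = 8.99e-05). Cdkn2b lies next to Cdkn2a on chromosome 4. The INK4 gene Cdkn2c failed the level filter and was not tested. Its mean log2 level of -3.02 in serum compared with -1.09, 0.23 and -0.50 after 6, 24 and 72 h, and every library in 2i lay above every serum library. Cdkn1c, Rbl1 and Cdkn2c, all of this list, were named after their values were seen.

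Of 18 genes listed as E2F targets, most of them genes of DNA replication and S phase, all were tested. At 72 h limma called 0 higher and 6 lower (1 higher and 8 lower before adjustment), with a median change of -0.20. The share called was 33.3%, against 50.5% of all tested genes called in either direction and 26% called lower. The 6 that fell were the licensing factor Cdc6 (-0.73, adjusted p = 0.000458), the mitotic cyclin Ccnb1 (-0.72, adjusted p = 0.0029), the helicase subunits Mcm5 (-0.67, adjusted p = 0.000351) and Mcm2 (-0.45, adjusted p = 0.00538), cyclin A2, Ccna2 (-0.61, adjusted p = 0.00055), and Rrm1 of ribonucleotide reductase (-0.45, adjusted p = 0.0043). At 6 h 3 were called higher and 0 lower (3 and 1 before adjustment, limma; 16.7% in all, against 14.2%), and at 24 h 2 higher and 4 lower (33.3%, against 62.7%). Leaving out the 3 libraries gave 1 higher and 8 lower at 72 h (50%, against 58.6%), 1 and 5 at 24 h (33.3%, against 49.3%) and 3 and 1 at 6 h (22.2%, against 26.1%).

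Of 17 known p53 targets other than Cdkn1a, 16 were tested. At 72 h 6 were called higher and 5 lower (68.8% in all, against 50.5% of all tested genes), with a median change of 0.25. At 24 h the counts were 6 and 1 (43.8%, against 62.7%), and at 6 h 1 and 2 (18.8%, against 14.2%). Without the 3 libraries the counts were 7 and 7 at 72 h (87.5%, against 58.6%), 5 and 1 at 24 h (37.5%, against 49.3%) and 1 and 6 at 6 h (43.8%, against 26.1%). The 3 largest rises at 72 h were Phlda3 (0.95, adjusted p = 0.00922, and 0.72 without the 3 libraries), Btg2 (0.81, adjusted p = 0.000262) and Sesn1 (0.65, adjusted p = 0.000519), and the 3 largest falls Gadd45a (-1.69, adjusted p = 1.84e-07), Perp (-0.69, adjusted p = 0.0109) and Eda2r (-0.67, adjusted p = 0.00041). Cdkn1a thus rose more than any tested gene of this list at 72 h. At 6 h, when Cdkn1a had risen by 1.37, Sesn1 was called higher (0.48, adjusted p = 0.0126). Called lower at 6 h were Gadd45a, a stress-induced gene that acts on growth arrest (-1.58, adjusted p = 1.93e-06), and Pmaip1 (-0.56, adjusted p = 0.00285). The part of p53 in these changes was not tested.

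**Figure D4:**
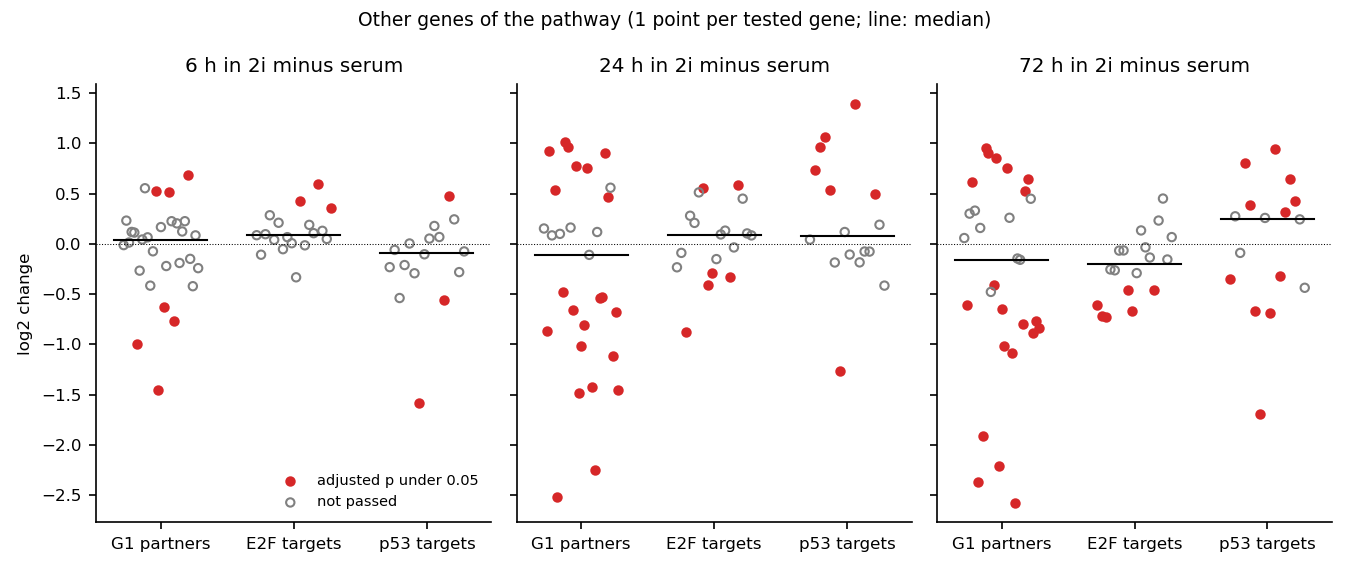
Log2 change from serum of the tested genes of the 3 lists at 6, 24 and 72 h of 2i, with 1 point per gene, filled where the adjusted p was under 0.05, and a line at the list's median. At 72 h the filled points of the E2F targets all lie below 0, and those of the other lists lie on both sides.

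The genes whose log2 levels followed each of the 9 tested genes most closely were found by Pearson r over the 12 libraries. These come from 4 times with 3 libraries each and share their normalization, so r mainly reflects the course over time, and it is given as a description. Ccnd1 was followed most closely by the imprinted gene Mest (0.996), Ipo5 (0.993) and Syt11 (0.993). Ccnd2 was followed by Polr1b (0.995), a subunit of RNA polymerase I, Naa25 (0.994) and Lphn2 (0.993), and Ccne1 by Akr1b8 (0.989), Snrpn (0.979) and Slc25a32 (0.977). Cdkn1a was followed by Tsc22d3 (0.994), Gpt2 (0.992) and Hoxc13 (0.991), Cdkn1b by Lactb2 (0.986), Gm13580 (0.986) and Ppt1 (0.983), and Cdkn2a by Slc39a1 (0.980), Cmtm7 (0.977) and Pgap2 (0.973). Ccne2 was followed by Bzw1 (0.987), Cse1l (0.950) and Gm10664 (0.943). Ccnd3 was followed by Taf5l (0.960), Fam63a (0.956) and Phf13 (0.952), and Rb1 by Atp8a1 (0.928) and Lrrn4cl (0.906). Among the 10 genes, r was 0.962 between Cdkn1a and Cdkn1b, -0.972 between Cdkn1a and Ccnd2 and 0.0153 between Ccnd2 and Ccnd3.

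H3K9me2, a histone mark of silent chromatin, gave a second readout of the same genes. For each gene the log2 ratio of bound to input reads, each scaled to its library, was taken over its span and 2 kb on each side. Both bound samples of a condition shared its 1 input. Variation between inputs is therefore not in the SE or adjusted p values given for H3K9me2. Because samples were scaled to their own depth, a loss across the whole genome would not appear. The 6 bound samples held 14396552 to 19279328 reads in bins. The median over 23339 genes was -0.86 and -0.95 in serum, -0.94 and -0.95 at 24 h, and -1.70 and -1.78 in LT2i. In serum 9 of the 10 genes lay below that median and Rb1 above it. Cdkn1b had the lowest mean in each condition, with -3.04 and -4.25 in serum, -4.23 and -3.52 at 24 h and -4.05 and -3.84 in LT2i, which put it at the 0.244 to 8.31 percentile of genes. It covered 5 bins, the fewest of the 10 genes, where Rb1 covered 69. Bins without bound reads entered as 0.9 reads. How near the values of Cdkn1b lay to that floor was not checked, so its rank is uncertain. Rb1 had the highest mean in each, with -0.80 and -0.74 in serum, -0.92 and -0.99 at 24 h and -0.98 and -1.08 in LT2i.

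At 24 h none of the 10 genes was called, where limma called 2 of 23339 genes (0.00857%), and 4237 lay under 0.05 before adjustment, among them 1 of the 10. That gene was Ccne1, at -2.83 and -2.52 in serum and -1.65 and -1.78 at 24 h (change 0.96, SE 0.24, adjusted p = 0.158). The other genes whose RNA was called lower at 24 h changed in H3K9me2 by 0.35 (Ccnd1), 0.04 (Ccnd2), 0.06 (Ccnd3) and 0.17 (Ccne2). A link between the mark and RNA was not tested. In LT2i 6 of the 10 were called, all lower, where 57.7% of all genes were called, 50% lower and 7.67% higher, and the share of the 10 genes is near that background. Ccnd3 went from -1.62 and -1.88 to -3.08 and -3.08 (change -1.33, adjusted p = 0.0016) and Rbl2 from -1.90 and -1.62 to -3.06 and -2.99 (-1.26, adjusted p = 0.00213). Cdkn1a went from -1.57 and -1.82 to -2.37 and -3.18 (-1.08, adjusted p = 0.0189). The changes of Ccnd1 (-0.87, adjusted p = 0.0425), Cdkn2a (-0.59, adjusted p = 0.0296) and Ccnd2 (-0.58, adjusted p = 0.0344) also passed, and those of Ccne1 (-0.61), Cdkn1b (-0.30), Rb1 (-0.26) and Ccne2 (0.29) did not, against a median change of -0.54 over all genes (limma adjusted p of 0.0694 to 0.594 for these 4). The genes called lower included Ccnd2 and Ccnd1, whose RNA was called lower at 72 h, and Cdkn1a and Cdkn2a, whose RNA was called higher. Ccnd3, whose RNA was not called at 72 h, was also among them. RNA was not measured in LT2i. Within 5 kb of the gene start 2 of the 10 were called in LT2i, where 10179 of 23624 genes were called. The change of Ccnd2 there took the other sign (0.36, limma adjusted p = 0.434). When 1 bound sample of serum or LT2i was left out, 2 to 4 were called, and 9560 to 11217 of all 23339 genes, with Ccne1 among the 4 called without LT2i replicate 1 (adjusted p = 0.0388). The calls of Ccnd1, Ccnd2 and Cdkn2a were lost whichever of these 4 samples was left out (adjusted p of 0.0572 to 0.171), and that of Cdkn1a without serum replicate 1 (adjusted p = 0.0917).

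**Figure D5:**
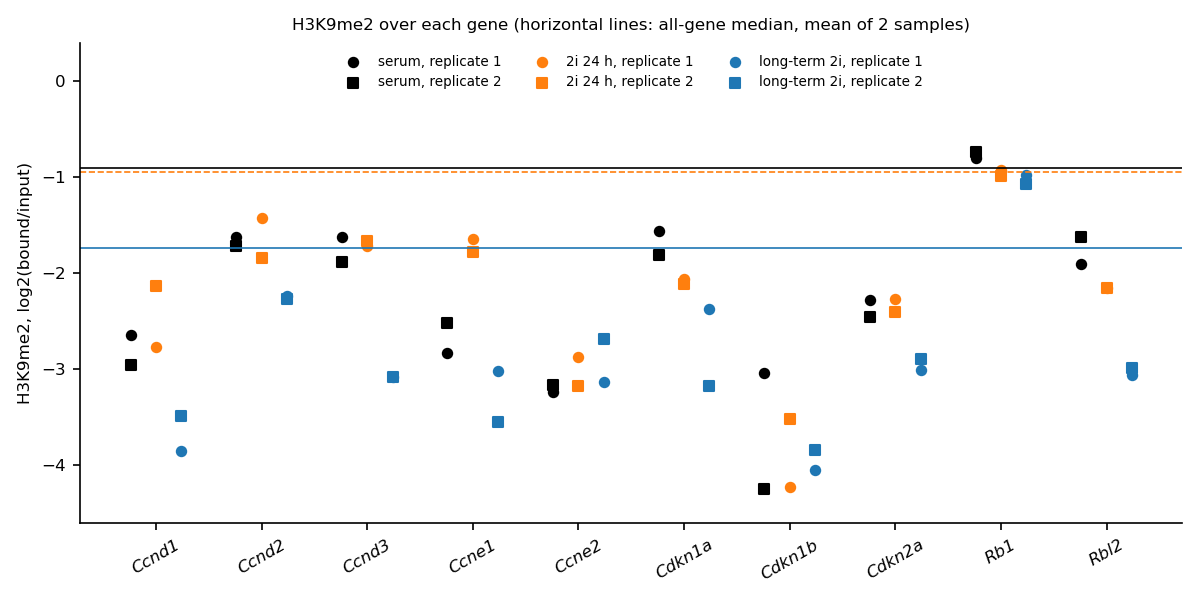
H3K9me2 over each of the 10 genes as log2(bound/input) (y axis) in the 6 bound samples, with 1 symbol per replicate, coloured by condition. Horizontal lines give the median over all genes in each condition. Cdkn1b lies below -3 in every sample, and Rb1 lies highest.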

How the data were processed

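RNA-seq covered 12 E14 samples and H3K9me2 ChIP-seq 6 bound and 3 input samples, of 80 in the series. The authors deposited RNA-seq as log2 values that account for gene length and depth, brought to a common 75th percentile of 2.51, with 0.9 reads for genes without reads, and log2 read counts per 2-kb bin for ChIP-seq, scaled to the largest library. The submitters' processing notes name Trim Galore 0.3.5, TopHat2 2.0.11, Bowtie2 and Bismark 0.12.3, without roles. Gene and bin coordinates are those of GRCm38. The 59 bisulfite files use NCBIM37 and were not used here. Relative to the first serum library, the value of genes without reads ran from -0.29 to 0.27 (log2). It stands for a fixed 0.9 reads, so it is higher where the scaling for depth and to the common 75th percentile raised a library more. Total reads of the RNA libraries are unknown.

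Differences were tested with limma 3.58.1 (trended empirical Bayes, R 4.3.3), all 12 RNA samples in one fit without a block, over genes with a mean log2 value of 0 or more, and with Benjamini-Hochberg adjustment at 0.05. ChIP-seq reads, scaled to library totals, were summed per gene over 2 or more bins within its span and 2 kb on each side, and each condition's input was shared by both of its bound samples. Cyclin shares used linear values and an exact permutation test. The scripts were tested on simulated data. Per list, the named genes were the 3 largest rises and falls at 72 h among those called, and per member the 3 genes with the highest r. For Rb1, 1 of these genes is not reported here. The members and the lists were chosen with earlier results of these data known. Groups and replicate numbers came from the sample labels.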

Additional observations from a re-analysis of the deposited data

How the results depend on the processing

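Each value was recomputed with other filters, a pseudocount of 1, quantile normalization, an untrended fit, only the samples compared, the gene span trend removed, and each replicate left out. Leaving out the 3 libraries that stood apart, and the block with the span trend removed, were chosen after seeing the data. All 6 calls at 72 h kept their side and direction in every setting run for them. So did 4 of 5 at 6 h (not Ccnd3), 5 of 8 at 24 h (not Ccnd3, Ccne2 and Cdkn2a) and 1 of 3 between 24 and 72 h (Ccnd1). For H3K9me2 in LT2i 1 of 6 did (Ccnd3). Read totals of the RNA libraries are unknown, so no depth limit can be given for Rb1 and Rbl2.

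The number of genes called among the 9 fell from 5 to 2 at 6 h and from 3 to 0 between 24 and 72 h when a change of 1 log2 unit was required (limma), where 463 and 841 of all tested genes were called, against 2850 at 24 h and 2038 at 72 h. Among all genes, leaving out the 3 libraries gave 2972 calls at 6 h and 2167 between 24 and 72 h, where 1621 and 3388 were called with all libraries, and fitting only the 6 samples compared gave 3239 and 1212. Leaving out 1 serum or 6 h replicate gave 1042 to 1218 at 6 h, and between 24 and 72 h 6197 were called without 24 h replicate 3, 2205 without 24 h replicate 2 and 2011 without 72 h replicate 1. For H3K9me2 at 24 h, 512 of all genes were called by bound reads alone, 431 within 5 kb of the start and 0 to 3 in the other settings, where 2 were called. Leaving out 1 replicate gave 4 calls among the 9 in each case at 6 h, 7 to 8 at 24 h (53.5% to 71.7% of all genes), 6 to 7 at 72 h (42.6% to 50.8%), 2 to 4 between 24 and 72 h (17.7% to 54.5%), 0 for H3K9me2 at 24 h and 2 to 4 of 10 in LT2i (9560 to 11217 of all genes), and the rise in the Ccnd3 share at 72 h was 26.5 to 27.3 percentage points. Within 5 kb of the gene start, 2 of 10 were called in LT2i (10179 of all genes). The cause was not tested.

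Same-numbered samples deviated together in 15 of 18 pairs (r over 0.1, lowest -0.32, median 0.39). Among pairs of different numbers 10 of 36 did (median -0.26), and 8 of 12 samples correlated best with their own number. Because not every same-numbered pair deviated together and no label names a shared batch, the main fit did not pair the samples. These values do not exclude a pairing. With the replicate block the calls among the 9 were 5 at 6 h, 8 at 24 h, 8 at 72 h (Ccne2 -0.38, adjusted p = 0.0317, and Rb1 0.44, adjusted p = 0.0314, were added) and 3 between 24 and 72 h, and those among all genes 2234, 8053, 6786 and 5288. The block with the span trend removed gave 5 of 9 (4940 of all genes) between 24 and 72 h and 2686 of all genes at 6 h. For H3K9me2 the block gave 0 of 10 at 24 h and 5 in LT2i (limma, 0 and 13341 of all genes, with 4337 at 24 h under 0.05 before adjustment), and the Ccnd3 share difference within pairs was 26.9 percentage points (exact p = 0.25, the smallest 3 pairs allow).

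Apart from Ccnd2 in LT2i, no called change took the other sign in any setting run. Uncalled changes that did were, at 6 h, Ccne2 (-0.026) and Rb1 (-0.037) under quantile normalization and Rb1 (-0.048) with the span trend removed, with or without the block; leaving out 1 replicate gave -0.15 to 0.17 for Ccne2, -0.046 to 0.085 for Rb1 and -0.18 to 0.099 for Cdkn2a. At 24 h Rb1 was -0.0059 under quantile normalization and -0.14 to 0.22 with 1 replicate left out. Between 24 and 72 h Ccne1 was 0.10 under quantile normalization, 0.18 with the span trend removed, with or without the block, 0.24 without the 3 libraries and -0.15 to 0.082 with 1 replicate left out, and Ccnd2 was -0.19 and -0.16 to 0.28 in the last 2 cases. For H3K9me2 at 24 h, Cdkn1b was 0.021 by bound reads alone, and within 5 kb of the start Ccnd2 was -0.047, Cdkn2a -0.055, Rb1 0.63 and Rbl2 0.32; leaving out 1 sample gave -0.83 to 0.38 for Cdkn1b, -0.17 to 0.25 for Ccnd2, -0.068 to 0.19 for Ccnd3 and -0.060 to 0.12 for Cdkn2a. In LT2i, Ccne2 was -0.091 by bound reads alone, Ccne1 0.49 and Ccnd2 0.36 (adjusted p = 0.434) within 5 kb of the start, and Cdkn1b -0.91 to 0.30 with 1 sample left out.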
